A study of Schizosaccharomyces pombe with 12 samples.

Results

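The comparison set out here is the H2B K-to-A mutant of the fission yeast Schizosaccharomyces pombe against its wild type, in 6 of the 12 libraries of an RNA sequencing series. The libraries were taken by their labels, 3 of the mutant (A) and 3 of the wild type (WT), and all transcripts with enough counts were compared. In the A mutant, lysines 5, 10 and 15 of histone H2B are replaced by alanine together, per the genotype labels of A replicates 1 and 3. A replicate 2 carries 16 instead of 15 in its label. In the other mutants of the series the same lysines are replaced by glutamine (Q) or arginine (R), with 3 libraries each, and no further genotype is given for any group. RNA came from whole cells. The labels give no mating type, strain background, growth condition or number of independent clones, and nothing in them says that the replicates grew as separate cultures. The p-values therefore reflect no more than the spread among these libraries, which may be technical. Any other difference between the A and WT strains cannot be told apart from the substitutions. Per its title, the series concerns how acetylation of the H2B tail bears on the repair of double-strand breaks.

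Histone H2B pairs with H2A in the nucleosome, the particle around which DNA is wound. Its amino-terminal tail protrudes from the particle, and its lysines can carry acetyl groups, which remove their positive charge. Histone acetyltransferases add these groups, deacetylases remove them, and acetylated tails are known as a feature of open chromatin and of chromatin under repair. Alanine has a short uncharged side chain that cannot be acetylated. In S. pombe H2B is encoded by htb1 (SPCC622.09) on chromosome III. The start of its coding sequence in the RefSeq annotation of assembly ASM294v3 is shown because it holds the replaced codons. It is the unmutated sequence, in the direction of transcription, with the codons of the replaced lysines in capitals.
htb1, first 20 codons: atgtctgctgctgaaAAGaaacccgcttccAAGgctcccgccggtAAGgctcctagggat
All 3 codons are AAG. They are codons 5, 10 and 15 when the initiator methionine is left out, and codons 6, 11 and 16 when it is counted.

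Gene counts summed to between 16504014 and 17100237 in the A libraries and between 15461002 and 20050394 in the WT libraries. Levels are given as CPM, the gene's count scaled to a common library total, with totals adjusted by edgeR's TMM scaling over all 12 libraries. Taken as the floor, 3 counts came to between 0.175 and 0.183 CPM in A and between 0.147 and 0.193 CPM in WT. Replicates of A lay farther apart than replicates of WT, with a median SD of log2 CPM over genes of 0.181 in A and 0.0895 in WT. The first principal component held 58% of the variance and placed A replicates 1, 2 and 3 at 9.6, 25.5 and 11.1, against -16.9, -12.3 and -17 for the WT replicates. On this axis A replicate 2, the library whose label differs, stood farthest from WT.

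A gene was called when its p in edgeR's quasi-likelihood test, adjusted after Benjamini and Hochberg, was below 0.05. Of 4999 genes tested, 933 (18.7%) were called. In A, 508 genes (10.2%) were called higher and 425 (8.5%) lower. The groups did not overlap for any of the 933 called genes, nor for 2112 (42.2%) of all tested genes. Most changes were small. The median size among called genes was 0.55 on the log2 scale, and 126 calls reached a 2-fold change, of which 68 were higher and 58 lower in A. Among the higher calls, A replicate 2 was the highest library for 291 of 508, and among the lower calls it was the lowest for 251 of 425. The number of calls rested on the WT libraries, with 306, 406 and 183 genes called without WT replicate 1, 2 or 3, and between 792 and 1175 without an A library. No call changed sign in those fits, and 177 calls (83 higher, 94 lower) held in all 6 of them. When the Q and R libraries entered the fit as well, 209 of 5024 tested genes (4.16%) were called, 137 higher (2.73%) and 72 lower (1.43%), and all 209 were among the 933. The fit of A and WT alone was taken with both counts known.

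The mutated gene itself was more abundant in A. htb1 stood at 16545, 9921 and 5929 CPM in A replicates 1, 2 and 3, against 3007, 3287 and 3350 CPM in the WT libraries. Every A library lay above every WT library, and the A libraries differed among themselves by more than they did in WT, at 10798 ± 5362 CPM in A and 3215 ± 182 CPM in WT (SD, n = 3 each). The log2 fold change, A over WT, was 1.73 (approximate SE 0.33, adjusted p = 0.0129, edgeR). The call was lost without WT replicate 1 (adjusted p = 0.0618) or WT replicate 3 (adjusted p = 0.061). The substitutions do not remove the transcript, so its level is no check of the labels.

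Of the neighbours of htb1, sec5 fell in A and hta1 was not called. The transcript of sec5 (SPCC622.10c), whose product belongs to the vesicle-tethering exocyst complex, had 156, 148 and 105 CPM in A and 455, 383 and 458 CPM in WT. The groups were well apart, and sec5 fell by 1.67 on the log2 scale (SE 0.16, adjusted p = 0.00204), with the call kept in all 6 fits that left out a library. It is annotated on the strand opposite htb1, and the annotated genes overlap over 19.6% of htb1. hta1 (SPCC622.08c), one of the H2A genes, had 345, 234 and 375 CPM in A and 423, 410 and 429 CPM in WT, a log2 fold change of -0.41 that was not called (adjusted p = 0.123). Of the 8 exocyst genes tested, exo84 rose (log2 fold change 0.52, adjusted p = 0.0333), and 6 were not called. With sec5, 25% of the 8 were called, against 18.7% of all genes. The call of exo84 held only without A replicate 1, with an adjusted p between 0.0529 and 0.136 without each of the others.

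**Figure D1:**
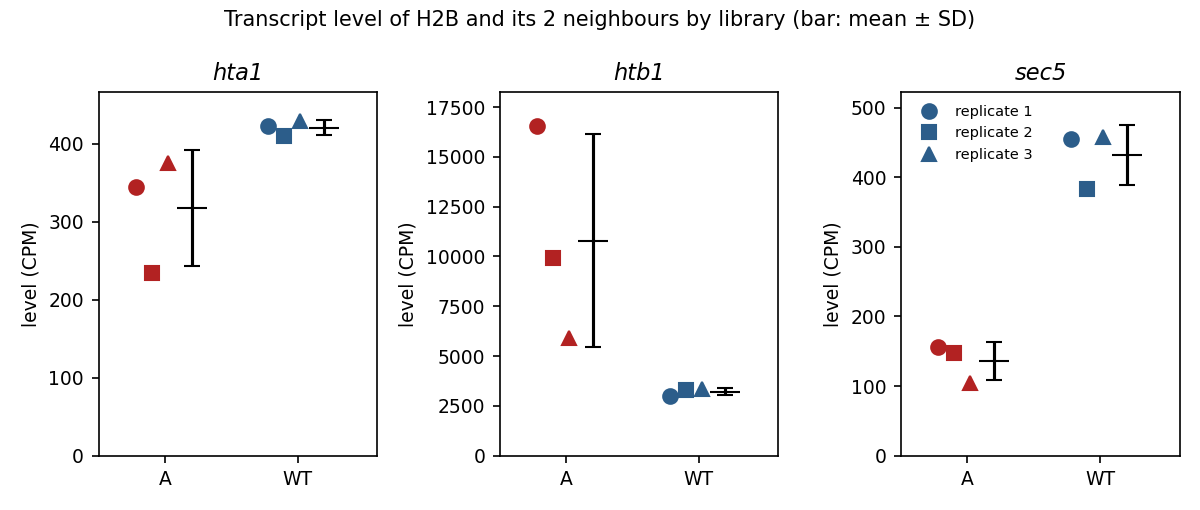
Levels of hta1, htb1 and sec5 in CPM, one point per library, with A left of WT and the mean ± SD of 3 libraries beside the points. The A libraries of htb1 run between 5929 and 16545 CPM, all above WT, and those of sec5 between 105 and 156 CPM, all below WT.

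No other core histone gene was called. Of the 11 core histone and variant genes tested, htb1 was the 1 call (9.09%, against 18.7% of all genes). The genes for H3, H4 and H2A had log2 fold changes between -0.42 (hht1, adjusted p = 0.0775) and 0.31 (hhf1, adjusted p = 0.143). hht1 had 598, 431 and 439 CPM in A and 610, 664 and 674 CPM in WT, so its groups did not overlap, but the difference missed the threshold. The H2A.Z gene pht1 changed by 0.25 (adjusted p = 0.179) and the centromeric H3 gene cnp1 by -0.18 (adjusted p = 0.342).

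The largest rises in A included SPAC977.18, SPBPB2B2.18, fub2, mei2 and mfs3. The genes described were called in the fit of A and WT and in that of all 12 libraries, changed at least 2-fold, reached 5 CPM in the higher group and did not overlap between the groups. SPAC977.18, a conserved fungal protein of unknown role, stood at 107, 332 and 111 CPM in A and at 19.5, 26.4 and 18.3 CPM in WT, with a log2 fold change of 3.08 (SE 0.46, adjusted p = 0.00624). Its lowest A library lay above the highest WT library, and A replicate 2 was far above the other two. A copy with 98.1% identity over 75.9% of its length, SPBPB2B2.18, lies on another chromosome, so the counting may have split reads between them. SPBPB2B2.18 had 3.27, 12.1 and 3.13 CPM in A and 0.737, 1.32 and 0.193 CPM in WT (log2 fold change 3.0, adjusted p = 0.0259), a call that did not hold without WT replicate 1 (adjusted p = 0.0959) or WT replicate 3 (adjusted p = 0.0894).

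fub2 (SPBP4G3.03), a predicted PI31-type regulator of the proteasome, had 34, 220 and 102 CPM in A and 19.8, 19 and 14.4 CPM in WT. The groups did not overlap, but the A libraries spread widely. The log2 fold change was 2.72 (SE 0.58, adjusted p = 0.0182), and the call was lost without WT replicate 1, 2 or 3, at 0.0668, 0.0601 and 0.0791. mfs3 (SPBC36.03c), a transporter of the major facilitator family, was far steadier, with 488, 544 and 579 CPM in A and 94.6, 165 and 183 CPM in WT. Its log2 fold change of 1.85 (SE 0.23, adjusted p = 0.00463) held without any 1 library. dam1 (SPAC589.08c), a subunit of the DASH complex that couples kinetochores to microtubules, had 16.5, 26.2 and 15.6 CPM in A and 6.04, 2.94 and 7.9 CPM in WT, and rose by 1.78 (adjusted p = 0.014, lost without WT replicate 1 at 0.0572). Reads on its overlap with csr101 on the opposite strand, 26% of dam1, cannot be assigned with certainty, since the handling of strand is not given in the sources used here. hri1 (SPAC20G4.03c), a kinase that phosphorylates the translation factor eIF2 alpha under stress, had 131, 135 and 162 CPM in A and 54.2, 49.1 and 45.3 CPM in WT. It rose by 1.52 (SE 0.12, adjusted p = 0.00194), with a wide gap between the groups and the call kept without any 1 library.

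The largest falls included trz2, tri1, med20 and mug136. trz2 (SPBC3D6.03c), the mitochondrial endonuclease that trims the 3′ ends of tRNA precursors, had 90, 46.1 and 99 CPM in A and 298, 238 and 284 CPM in WT, with a log2 fold change of -1.81 (SE 0.26, adjusted p = 0.00592). tri1 (SPBC29A10.09c), a ribonuclease that matures Argonaute-bound small RNAs, had 63.8, 63.1 and 102 CPM in A and 281, 169 and 214 CPM in WT (log2 fold change -1.55, adjusted p = 0.00711). It overlaps gas2 on the opposite strand over 48.9% of its length. med20 (SPAC17G8.05), a subunit of the Mediator complex, which links transcription factors to RNA polymerase II, had 10.8, 9.45 and 13.6 CPM in A and 32.1, 26.2 and 28.7 CPM in WT. It fell by 1.37 (SE 0.16, adjusted p = 0.0043). mug136 (SPBC4C3.08), a predicted acetylglucosaminyltransferase, stood at 35.9, 30.8 and 36.1 CPM in A and at 81.2, 68.4 and 72.2 CPM in WT, a log2 fold change of -1.12 (SE 0.11, adjusted p = 0.00204). Each of these 4 calls was kept without any 1 library. The S. pombe-specific gene SPAC27F1.10 (log2 fold change -1.84, adjusted p = 0.00248) also kept its call, at 2.69 ± 0.422 CPM in A and 9.53 ± 0.835 CPM in WT (SD, n = 3 each).

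Counts of 0 in all A libraries marked another group of falls. uga1 (SPAC19D5.07), which encodes GABA transaminase, had 0 counts in each A library and 155, 93 and 95 counts in the WT libraries. dut1 (SPAC644.05c), which encodes the enzyme that hydrolyses dUTP and so keeps uracil out of DNA, had 0 counts in each A library and 136, 97 and 71 in WT. Taken against the floor of 3 counts per library, uga1 was at least 35.9-fold lower in A and dut1 at least 31.7-fold lower. The predicted asparagine synthase gene SPBC4F6.11c (92, 85 and 25 counts in WT) was at least 20.9-fold lower, and SPAC6C3.05 (13, 28 and 33 counts in WT) at least 8.25-fold lower. The edgeR test gave adjusted p of 0.00194, 0.00204, 0.00804 and 0.0155 for the 4 genes in that order, and that of SPAC6C3.05 was lost without WT replicate 3 (adjusted p = 0.0619). Each of the 4 lies within a gene on the opposite strand, over 99.3% of its length for SPAC6C3.05 and 100% for the others. The opposite-strand partners SPAC14C4.01c, pct1, SPAC6C3.06c and vps901 were not called, with log2 fold changes of -0.08, 0.2, 0.13 and -0.09 (adjusted p between 0.21 and 0.512). These genes were also at 0 in all Q libraries. In the R libraries all values were 0 except those of dut1 in R replicates 1 and 3, with 3 counts each. The reads that gave the WT counts were not examined here.

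**Figure D2:**
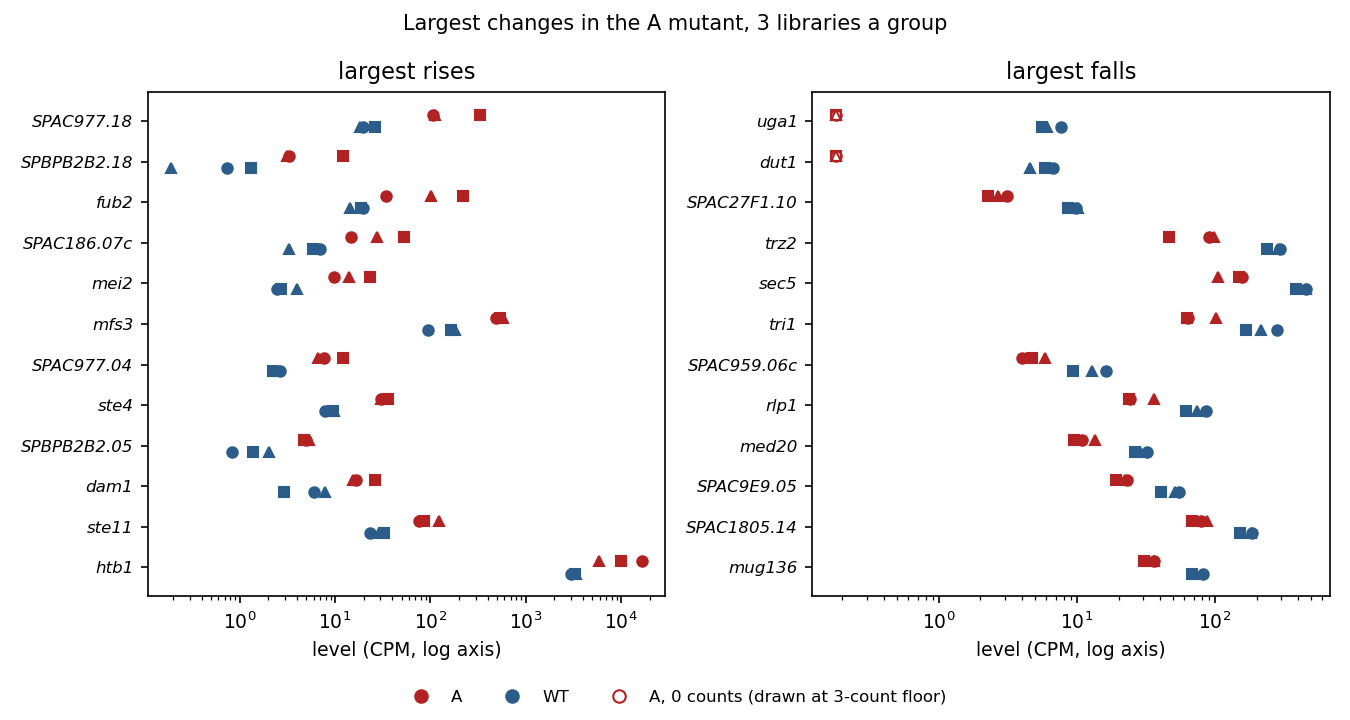
Levels in CPM on a log axis of the 12 largest rises and 12 largest falls in A by the rule stated in the methods, with A drawn above WT in each row and one marker shape per replicate number. No A library overlaps a WT library in any row, which the rule required, and the A libraries of fub2 run between 34 and 220 CPM.

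Genes that start mating and meiosis were among the calls, most of them higher in A. In S. pombe, nitrogen starvation raises the transcription factor Ste11, which turns on genes for the pheromones, their receptors and the MAP kinase cascade that answers them, and mei2, whose RNA-binding product drives entry into meiosis. Of 34 tested genes of this pathway 10 were called higher and 3 lower in A (38.2% called, against 18.7% of all genes). Their median log2 fold change was 0.18, against -0.006 over all genes. The number of higher members was 7, 9 and 6 without WT replicate 1, 2 or 3 and 10 to 13 without an A library. The number of lower members was 0, 3 and 0 without the WT replicates in that order, and 3 without each A library. In the fit of all 12 libraries 8 were higher and 0 lower. In bulk RNA, a larger share of cells expressing these pathway genes and more RNA per cell cannot be told apart. Of 98 tested genes named mug, for meiotically upregulated gene, 12 were called higher and 13 lower in A. Of all tested genes 10.2% were higher and 8.5% lower. The median log2 fold change of the mug genes was -0.02.

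At the top of the pathway, ste11 (SPBC32C12.02) had 76.9, 85.5 and 124 CPM in A and 23.2, 33 and 29 CPM in WT. The groups were clearly separated, and ste11 rose by 1.74 (SE 0.21, adjusted p = 0.0043). mei2 (SPAC27D7.03c) had 9.71, 23.4 and 14.2 CPM in A and 2.46, 2.7 and 4.05 CPM in WT, a log2 fold change of 2.36 (SE 0.35, adjusted p = 0.00643), again with no overlap. ste4 (SPAC1565.04c), the adaptor of the kinase that opens the cascade, had 30.7, 36.5 and 30.5 CPM in A and 7.91, 9.6 and 9.76 CPM in WT. It rose by 1.83 (SE 0.14, adjusted p = 0.00194), with little spread in either group. These 3 calls, and those of gpa1, mam1 and mfm2, were kept without any 1 library. The G protein alpha subunit gpa1 (SPBC24C6.06) rose by 0.82 (adjusted p = 0.00831), at 173 ± 25.1 CPM in A and 97 ± 10.7 CPM in WT (SD, n = 3 each). The small GTPase gene ras1, overlapped over 87.4% by SPAC17H9.08, rose by 0.9 (adjusted p = 0.0125), and lost the call without WT replicate 1 (adjusted p = 0.0571) or WT replicate 3 (adjusted p = 0.0627). The MAP kinase gene spk1 stood at 10.5, 39.7 and 30.8 CPM in A and at 10.5, 9.84 and 10.7 CPM in WT. One of its A libraries matched WT, and the difference was not called (adjusted p = 0.0538). Of the kinases between them, byr2 (log2 fold change -0.4, adjusted p = 0.0716) and byr1 (0.13, adjusted p = 0.304) were not called.

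The called genes of M cells were higher in A, while of the called P-cell genes map2 and map3 were lower and map1 higher. M cells secrete M-factor and carry the receptor for P-factor, and P cells do the reverse. Of the M-cell genes, the M-factor precursor gene mfm2 (SPAC513.03) had 98.5, 187 and 113 CPM in A and 29.9, 49.8 and 43.9 CPM in WT, with every A library above WT (log2 fold change 1.68, SE 0.27, adjusted p = 0.00835). mam1, the M-factor exporter, rose by 0.87 (adjusted p = 0.00649), mam2, the P-factor receptor, by 0.92 (adjusted p = 0.00909) and mam4, the methyltransferase that modifies M-factor, by 0.45 (adjusted p = 0.0303). Of the P-cell genes, the P-factor precursor gene map2 (SPCC1795.06) had 30.1, 19 and 46.6 CPM in A and 121, 76.2 and 102 CPM in WT, with every A library below WT (log2 fold change -1.65, SE 0.31, adjusted p = 0.0123). map3, the M-factor receptor, had a log2 fold change of -0.94 (adjusted p = 0.0149), though 99.8% of it is overlapped by SPAC3F10.09 on the opposite strand. The cofactor gene map1, which acts on P-cell genes, rose by 1.4 (adjusted p = 0.0168). mei3, which frees Mei2 by blocking the Pat1 kinase, had a log2 fold change of -0.87 (adjusted p = 0.0172). The calls of map1, map2, map3 and mei3 were each lost without WT replicate 1 (adjusted p between 0.0511 and 0.0676) or WT replicate 3 (adjusted p between 0.0541 and 0.0745), that of mam2 without WT replicate 3 (adjusted p = 0.0507), and that of mam4 without WT replicate 1, 2 or 3 (adjusted p between 0.0594 and 0.129). With all 12 libraries fitted, map2, map3, mei3, mam2 and mam4 were not called (adjusted p between 0.0728 and 0.21). The mating-type gene mat1-Mc stood at 46.3, 110 and 65.4 CPM in A and at 32.7, 50.5 and 42.8 CPM in WT, overlapping and not called (log2 fold change 0.8, adjusted p = 0.1). Both M-cell and P-cell transcripts were present in both groups.

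M-factor is encoded by 3 genes, and mfm2 was the one that rose. mfm1 stood at 0.796 ± 0.237 CPM in A and 1.31 ± 0.247 CPM in WT, and mfm3 at 0.782 ± 0.4 CPM in A and 0.9 ± 0.367 CPM in WT (SD, n = 3 each), and neither was called (adjusted p = 0.19 and 0.806). The last 39 bases of the 3 coding sequences are shown from RefSeq (assembly ASM294v3) because the genes encode the same residues there and differ in bases, given in capitals.
mfm1 (SPAPB8E5.05, chromosome I): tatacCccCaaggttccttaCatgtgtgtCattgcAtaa
mfm2 (SPAC513.03, chromosome I): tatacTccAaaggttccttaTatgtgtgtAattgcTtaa
mfm3 (SPBPJ4664.03, chromosome II): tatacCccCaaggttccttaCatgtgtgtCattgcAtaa
mfm2 differs from mfm1 and mfm3 at 5 of these bases and at 0 residues, whereas mfm1 and mfm3 are alike over the stretch.

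**Figure D3:**
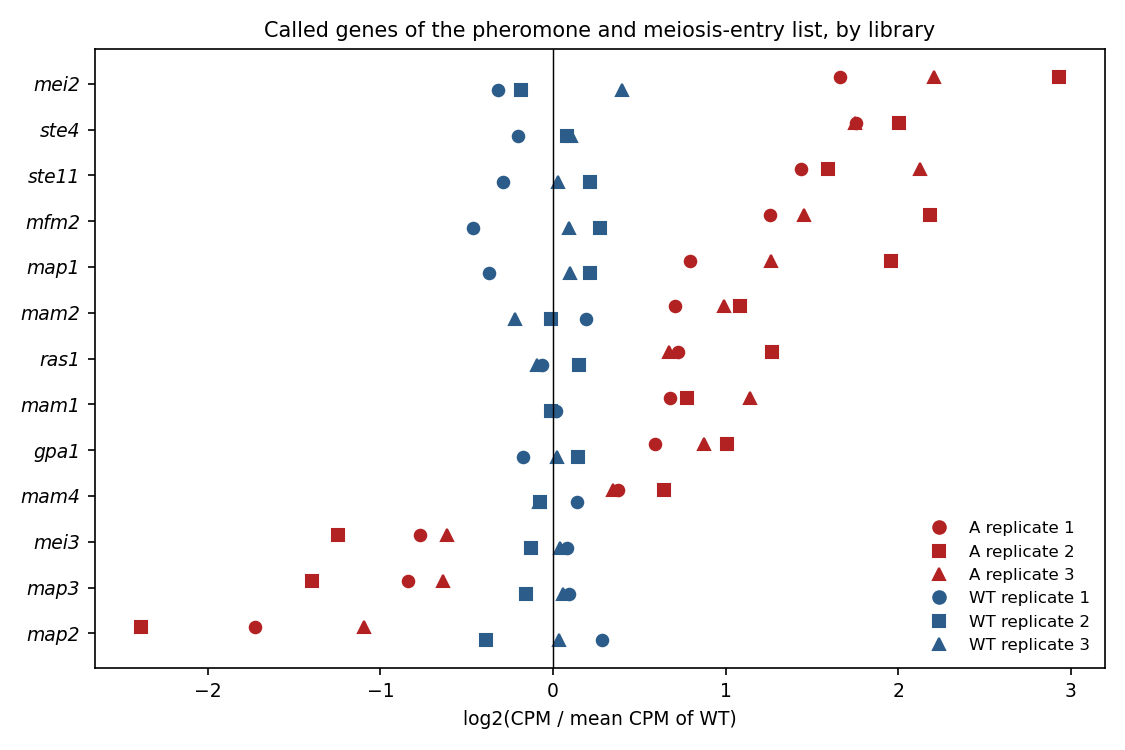
Log2 of the CPM of each library over the mean CPM of WT for the 13 called genes of the pheromone and meiosis-entry list, with A drawn above WT in each row. The M-cell genes mfm2, mam1, mam2 and mam4 lie right of 0 in all A libraries, and the P-cell genes map2 and map3 lie left of 0.

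Some proteasome genes rose, and none was called lower. The proteasome degrades proteins marked with ubiquitin. Of 40 tested subunit and regulator genes 10 were called higher and 0 lower in A (25% called, 10.2% of all genes higher), with a median log2 fold change of 0.2. The count was 2, 1 and 1 without WT replicate 1, 2 or 3 and 9 to 12 without an A library. It was 5 in the fit of all 12 libraries. Beside fub2 the largest change was in rpn2 (SPBC17D11.07c), a scaffold subunit of the regulatory particle, with 489, 678 and 528 CPM in A and 285, 272 and 261 CPM in WT. The groups were far apart, and rpn2 rose by 1.04 (SE 0.13, adjusted p = 0.00481), a call kept without any 1 library. mts4 (SPBP19A11.03c), the other large scaffold subunit, had 416, 578 and 447 CPM in A and 312, 286 and 285 CPM in WT and rose by 0.69 (adjusted p = 0.0128, lost at 0.0543 and 0.0689 without WT replicates 2 and 3). A replicate 2 was the highest library for both.

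A small number of chaperone and stress genes was called, and it changed with the library left out. Of 20 tested heat-shock chaperone genes, 2 were called higher and 0 lower (10% called, against 18.7% of all genes). The higher count was 1, 1 and 0 without WT replicate 1, 2 or 3, and 3, 5 and 2 without the A replicates in that order. cdc37, a co-chaperone that hands kinases to Hsp90, had 48.6, 76.7 and 49.2 CPM in A and 31.9, 26 and 23.4 CPM in WT (log2 fold change 1.09, adjusted p = 0.0115, lost at 0.0603 without WT replicate 3), and 85.9% of it is overlapped by SPBC9B6.11c on the opposite strand. bip1, the chaperone of the endoplasmic reticulum, had a log2 fold change of 0.51 (adjusted p = 0.0271). Leaving out any of the WT replicates ended that call (adjusted p between 0.102 and 0.133). Of 33 tested genes of the Sty1-Atf1 stress response, 4 were higher and 1 lower (15.2% called, also below the 18.7% of all genes). The higher count was 1 without each WT replicate, and 7, 5 and 3 without A replicate 1, 2 or 3. The lower count stayed at 1 in each of these fits. The neutral trehalase gene ntp1 had 604, 783 and 719 CPM in A and 419, 365 and 377 CPM in WT. It rose by 0.85 (SE 0.12, adjusted p = 0.00581) without any overlap, and the call held without any 1 library. zym1, which encodes a metallothionein, had 327, 1123 and 635 CPM in A and 248, 264 and 235 CPM in WT, so its rise of 1.47 (adjusted p = 0.0308) rested on unequal A libraries and was lost without WT replicate 1, 2 or 3 (adjusted p between 0.0863 and 0.115).

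The genes for nitrogen sources and for thiamine that were called in the fit of A and WT were all lower. Of 29 tested genes for the transport and breakdown of amino acids and other nitrogen sources, 0 were called higher and 8 lower. That is 27.6% called, against 18.7% of all genes (10.2% higher, 8.5% lower), with a median log2 fold change of -0.26. The count was 6, 3 and 3 without WT replicate 1, 2 or 3 and 6 to 8 without an A library. It was 2 in the fit of all 12 libraries. car1 (SPBP26C9.02c), which encodes arginase, had 64.1, 49.7 and 68.1 CPM in A and 121, 105 and 125 CPM in WT, with a wide gap (log2 fold change -0.96, SE 0.14, adjusted p = 0.00562). fnx1 (SPBC12C2.13c), a vacuolar amino acid transporter, had 72.6, 70 and 70.6 CPM in A and 105, 107 and 115 CPM in WT. It fell by 0.62 (SE 0.08, adjusted p = 0.00489) with almost no spread in A. Both calls held without any 1 library, but in the fit of all 12 libraries neither gene was called (adjusted p = 0.0718 for car1 and 0.0621 for fnx1). The other lower members were uga1, arg3, agp3, fnx2, amt3 and gln1. Of these, uga1 had 0 counts in A and lies within a gene on the opposite strand. Without WT replicate 3, among other fits, the calls of arg3, agp3, fnx2, amt3 and gln1 were lost (adjusted p between 0.0622 and 0.196). The list of thiamine-repressible genes holds car1 as well, by an older name of the vitamin transporter gene bsu1. Of the other 10 genes 0 were called higher and 4 lower (40% called, against 18.7% of all genes), with a median of -0.3. With car1 the lower count was 5, and it was 2, 2 and 1 without WT replicate 1, 2 or 3 and 4 to 6 without an A library. It was 0 in the fit of all 12 libraries. tnr3, which makes thiamine pyrophosphate and represses the group, had 232, 199 and 224 CPM in A and 375, 307 and 325 CPM in WT (log2 fold change -0.63, adjusted p = 0.0102, lost at 0.0541 without WT replicate 3). bsu1 was lower too (log2 fold change -0.61, adjusted p = 0.0192, lost without each WT replicate at 0.0561 to 0.0771). The remaining members called were thi4 and thi9.

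Galactose genes at the right end of chromosome II rose together. gal7, gal10 and gal1 encode the enzymes that turn galactose into glucose phosphate, and in S. pombe they lie side by side. gal1 (SPBPB2B2.13) had 44.8, 43.9 and 41.4 CPM in A and 21.1, 20.2 and 19.6 CPM in WT. It had very little spread in either group and rose by 1.08 (SE 0.1, adjusted p = 0.00194). gal10 (SPBPB2B2.12c) had 66.7, 83.6 and 86 CPM in A and 43.1, 35.4 and 31.3 CPM in WT and rose by 1.09 (SE 0.15, adjusted p = 0.005). gal7 (SPBPB2B2.10c) had 36.5, 37.7 and 34.1 CPM in A and 21.6, 18.5 and 15.7 CPM in WT and rose by 0.94 (SE 0.14, adjusted p = 0.00581). All 3 calls held without any 1 library, and in the fit of all 12 libraries that of gal10 was lost (adjusted p = 0.0618). SPBPB2B2.11, which overlaps 93.7% of gal10 on the opposite strand, was not called (log2 fold change -0.31, adjusted p = 0.622).

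The series asks about double-strand break repair, and repair genes moved in both directions. In homologous recombination a broken end is repaired from an intact copy. Of 30 tested genes 4 were higher and 6 lower (33.3% called, against 18.7% of all genes), with a median log2 fold change near 0. The higher count was 2, 1 and 1 without WT replicate 1, 2 or 3 and 3 to 6 without an A library, and the lower count 3, 3 and 2, and 4 to 6. Among the genes that act early in this pathway, rlp1 (SPBC1685.11) had 24.1, 24 and 36 CPM in A and 86, 61.4 and 74.1 CPM in WT, a fall of 1.41 on the log2 scale (SE 0.19, adjusted p = 0.00506) with no overlap. rdl1 (SPAC17H9.03c) had 14.4, 11.8 and 16.8 CPM in A and 27.5, 24.7 and 27.7 CPM in WT (log2 fold change -0.9, adjusted p = 0.00952, lost at 0.0541 without WT replicate 3). Their products belong, with their partner Sws1, to 1 complex. swi5 (SPBC409.03), which acts in mating-type switching and recombination, went the other way with 8.42, 8.84 and 9.38 CPM in A and 4.91, 3.78 and 2.05 CPM in WT (log2 fold change 1.28, adjusted p = 0.0202, lost at 0.0618 and 0.0541 without WT replicates 2 and 3). All of swi5 lies within mis12 on the opposite strand.

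Of the recombination genes that act after strand pairing, rdh54 (SPAC22F3.03c), a DNA-dependent motor protein, had 18.1, 24.4 and 24 CPM in A and 8.99, 11.2 and 9.37 CPM in WT. It rose by 1.16 (SE 0.17, adjusted p = 0.00581). rmi1 (SPAC26A3.03c), a partner of the helicase Rqh1 and topoisomerase Top3, had 26.5, 27.3 and 39.3 CPM in A and 80.9, 55.1 and 60.6 CPM in WT, a log2 fold change of -1.09 (SE 0.2, adjusted p = 0.0112). Both calls held without any 1 library, but rdh54 was not called in the fit of all 12 libraries (adjusted p = 0.0573). rdh54 is overlapped by atf31 over 56.6% and rmi1 by myh1 over its whole length, in each case on the opposite strand. The other called recombination genes, at whatever stage they act, changed less. mus81, ctp1 and fbh1 fell, with log2 fold changes of -0.38, -0.32 and -0.32 (adjusted p = 0.0259, 0.0313 and 0.0445). ssb2, overlapped over 97.1% by sec1, and dna2 had log2 fold changes of 0.41 and 0.45 (adjusted p = 0.0203 and 0.0407). Each of those 5 calls was lost without at least 3 of the libraries, at an adjusted p of up to 0.173. Of 5 end-joining genes, which rejoin ends without a copy, the ligase gene lig4 was the 1 call (20%, against 18.7% of all genes). Its log2 fold change was 0.39 (adjusted p = 0.0418). That call was lost without WT replicate 1 (adjusted p = 0.144), WT replicate 3 (adjusted p = 0.155), A replicate 1 (adjusted p = 0.0762) or A replicate 3 (adjusted p = 0.0864).

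The checkpoint kinase genes cds1, tel1 and rad3 were called higher in A in the fit of A and WT. These kinases sense damaged or stalled DNA and hold the cell cycle. Of 21 tested checkpoint genes 4 were higher and 1 lower (23.8% called, against 18.7% of all genes). The higher count was 3, 2 and 1 without WT replicate 1, 2 or 3 and 3 to 5 without an A library. cds1 (SPCC18B5.11c), the effector kinase of replication stress, had 40.6, 53.8 and 45.7 CPM in A and 24.6, 27.7 and 22.9 CPM in WT. Its rise of 0.89 (SE 0.13, adjusted p = 0.00629) held without any 1 library. tel1, the ATM kinase, had 14.8, 14.2 and 16.7 CPM in A and 9.73, 9.18 and 8.48 CPM in WT (log2 fold change 0.73, adjusted p = 0.0129, lost at 0.0693 without WT replicate 3). rad3, the ATR kinase, had 71.3, 77.2 and 81 CPM in A and 59.3, 48.6 and 44.6 CPM in WT (log2 fold change 0.58, adjusted p = 0.0174, lost at 0.0664 and 0.0783 without WT replicates 2 and 3), and 66.3% of it is overlapped by swi1 on the opposite strand. chk1, another effector kinase, was not called, with 24.9, 18.1 and 24.6 CPM in A and 14.5, 21.3 and 15 CPM in WT (log2 fold change 0.4, adjusted p = 0.188). In the fit of all 12 libraries none of these kinase genes was called, and rad4 was the 1 checkpoint gene that was, lower in A (log2 fold change -0.41 in the fit of A and WT). In the fit of A and WT the call of rad4 was lost without WT replicate 1, 2 or 3 (adjusted p = 0.0636, 0.0689 and 0.0997). Of 22 genes of excision and mismatch repair 2 were higher and 2 lower (18.2% called), led by the mismatch repair gene pms1 (log2 fold change 0.71, adjusted p = 0.0102, lost at 0.0564 without WT replicate 3).

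Genes of the enzymes that add and remove histone acetylation changed in both directions. Of 18 tested genes of acetyltransferases and their complexes 6 were higher and 3 lower (50% called, against 18.7% of all genes). The median log2 fold change was 0.02. The total was 2, 1 and 1 without WT replicate 1, 2 or 3 and 5 to 8 without an A library. It was 1 in the fit of all 12 libraries. That 1 call was mst2 (SPAC17G8.13c), an acetyltransferase of the MYST family that acts on histone H3. It had 127, 128 and 154 CPM in A and 74.2, 83.3 and 74.5 CPM in WT, a rise of 0.81 (SE 0.11, adjusted p = 0.005) kept without any 1 library. All of mst2 lies within the annotated sec3 on the opposite strand. tra2, spt7, hat1, ngg1 and elp3 had log2 fold changes between 0.28 and 0.63, and ptf2, naa40 and eaf6 between -0.98 and -0.55. Each of those 8 calls was lost without at least 2 of the libraries, at an adjusted p of up to 0.167. Of 23 genes of deacetylases and sirtuins 4 were higher and 2 lower (26.1% called, against 18.7% of all genes). The total was 1, 1 and 0 without WT replicate 1, 2 or 3 and 7 to 8 without an A library. pst2, a corepressor in a Clr6 deacetylase complex, had 75, 80.6 and 56.7 CPM in A and 39.3, 43.2 and 37.4 CPM in WT (log2 fold change 0.81, adjusted p = 0.00961, lost at 0.0541 without WT replicate 3). The deacetylase gene clr6 rose by 0.48 (adjusted p = 0.0124), and was lost without each WT replicate at 0.0511 to 0.0629. Of 21 heterochromatin and RNA interference genes 1 was called (4.76%), rik1, at a log2 fold change of 0.71 (adjusted p = 0.0259), and the median of the list was -0.18. rik1 held only without A replicate 1 or A replicate 2, and SPCC11E10.09c covers 91.9% of it on the opposite strand.

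Of the lists that follow, splicing factors and flocculins had a larger share called than all tested genes (18.7%), and the others a smaller one. Of all tested genes 10.2% were higher and 8.5% lower. Of 137 tested cytosolic ribosomal protein genes 2 were higher and 1 lower (2.19% called), with a median log2 fold change of -0.08, and without A replicate 2 a count of 3 was higher and 13 lower. Ribosome biogenesis had 6 higher and 5 lower of 64 (17.2%), and oxidative phosphorylation had 1 higher and 1 lower of 36 (5.56%). Splicing factors had 7 higher and 8 lower of 54 (27.8%). Among them prp38, needed to activate the spliceosome, had 32.2, 22 and 61.8 CPM in A and 135, 97.6 and 114 CPM in WT, the largest fall of the list (log2 fold change -1.59, SE 0.34, adjusted p = 0.0182). No A library reached WT, but the call was lost without WT replicate 1 (adjusted p = 0.0668), WT replicate 3 (adjusted p = 0.0647) or A replicate 1 (adjusted p = 0.0567). The G1/S targets of the transcription factor MBF had 0 higher and 4 lower of 23 (17.4%), with dut1 among them. dut1 had 0 counts in A and lies within a gene on the opposite strand. In the fit of all 12 libraries 1 of these MBF genes was called, lower in A. Cell wall glucan enzymes had 3 higher and 1 lower of 22 (18.2%), metal and phosphate uptake 2 higher and 1 lower of 24 (12.5%), flocculins 2 higher and 2 lower of 14 (28.6%), and hexose transporters 0 of 7. Without WT replicate 3, between 0 and 1 members were called in each list of this paragraph. The range was 0 to 3 without WT replicate 1 and 0 to 7 without WT replicate 2. Without A replicate 2, ribosome biogenesis had 8 higher and 12 lower, oxidative phosphorylation 1 and 6, and hexose transporters 3 and 0.

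**Figure D4:**
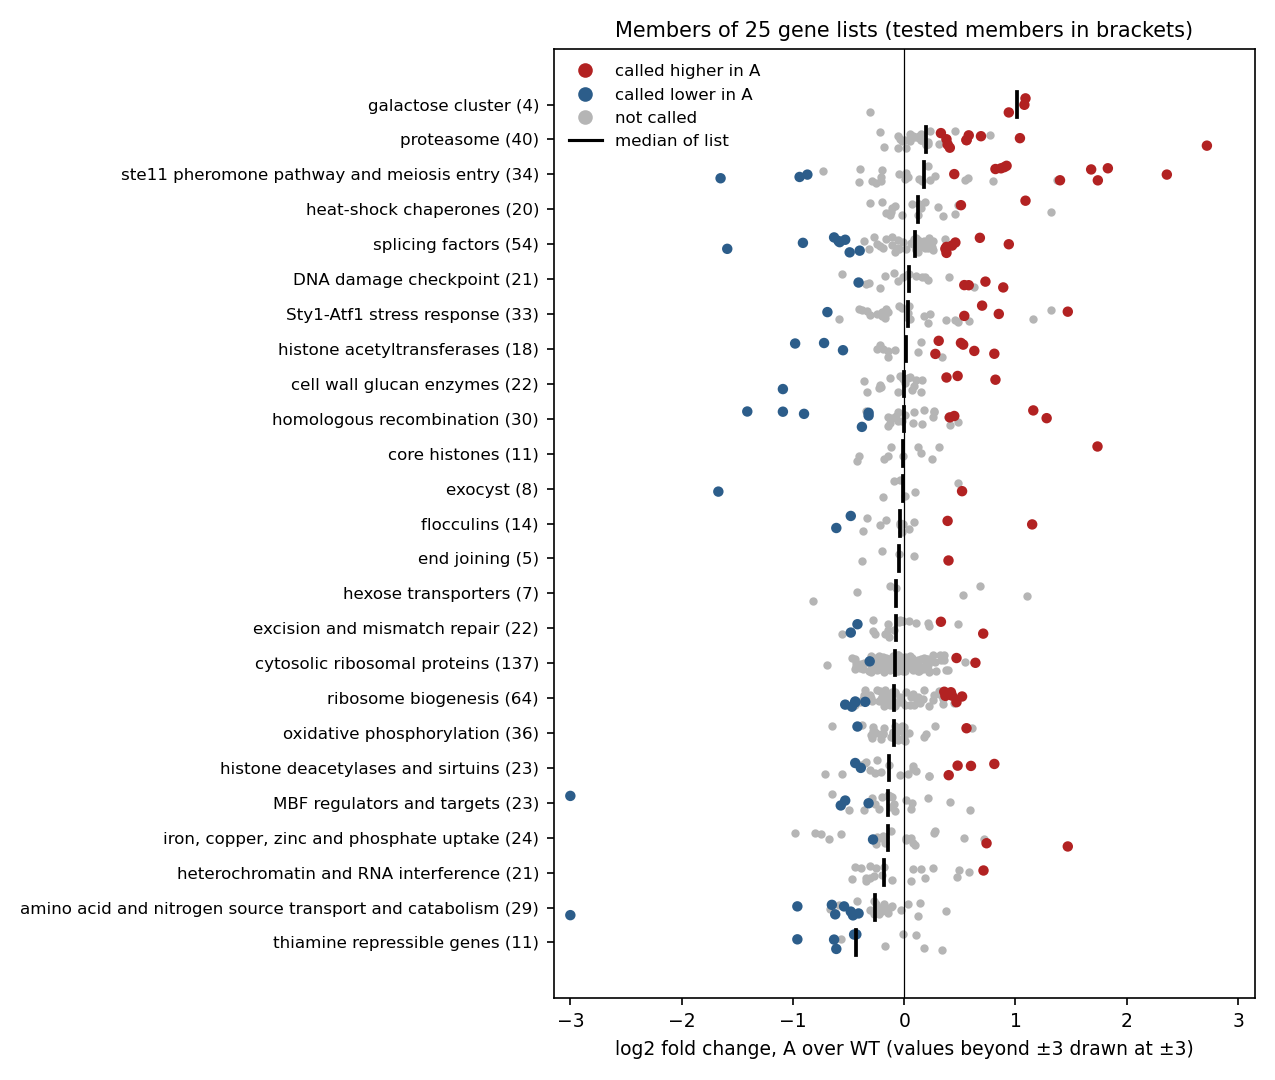
Log2 fold change, A over WT, of every tested member of the 25 gene lists, one point per gene, with called genes in colour and the median of each list as a black bar. The galactose cluster has the highest median, 1.01, the thiamine-repressible genes the lowest, -0.43 with car1 and -0.3 without it, and 2 genes at 0 counts in A are drawn at -3.

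At the right ends of chromosomes I and II, and at the left ends with copied genes counted, a larger share of genes was called higher than of the genes in between. In S. pombe these ends carry silenced subtelomeric regions. Counted in the order of the reference gene table, the 40 outermost tested genes of each end of chromosomes I and II make 160 genes, of which 41 (25.6%) were called higher and 7 (4.38%) lower in A, with a median log2 fold change of 0.39. Of the 3912 genes between them 386 (9.87%) were higher and 343 (8.77%) lower, with a median near 0. No test was run on this difference. The higher count at the ends was 22, 29 and 19 without WT replicate 1, 2 or 3 and 39 to 51 without an A library. It was 21 in the fit of all 12 libraries. The ends of chromosome III, which carry ribosomal DNA, had 1 and 3 of 40 genes higher, and 3 and 6 lower, with medians of -0.15 and -0.1.

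Many of these genes have near-identical copies, which share reads. Of the 160 genes 44 had a copy with at least 95% identity over at least 50% of their length, and of these 14 (31.8%) were higher. Without them 27 of 116 (23.3%) were higher and 7 (6.03%) lower, with a median of 0.21. At the left ends of chromosomes I and II 2 of 24 (8.33%) and 3 of 26 (11.5%) genes without a copy were higher, near the 9.87% of the genes between the ends. At the right ends of chromosomes I and II it was 12 of 35 (34.3%) and 10 of 31 (32.3%).

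The right end of chromosome I held the most calls of the 6 ends. Of its 40 outermost tested genes 15 were called higher and 3 lower, all but 1 of the higher ones among the outermost 20. SPAC186.07c, a predicted hydroxyacid dehydrogenase, had 14.7, 53.6 and 27.6 CPM in A and 6.93, 5.88 and 3.27 CPM in WT (log2 fold change 2.55, SE 0.48, adjusted p = 0.0122, lost at 0.0575 without WT replicate 3). mel1 (SPAC869.07c), which encodes alpha-galactosidase, had 15.8, 24.6 and 20.1 CPM in A and 8.4, 5.4 and 8.03 CPM in WT. It rose by 1.46 (SE 0.22, adjusted p = 0.00682), and its 4 neighbours SPAC869.09, pcm2, SPAC869.06c and SPAC869.05c rose with it, by 2.18, 0.63, 1.13 and 1.05. Those 4 calls were each lost without WT replicate 1 or WT replicate 3 or both, and that of pcm2 also without WT replicate 2 (adjusted p between 0.0528 and 0.0858). Of these 5 genes SPAC869.05c was the 1 called in the fit of all 12 libraries, with an adjusted p of 0.152 for mel1, 0.0672 for SPAC869.09, 0.409 for pcm2 and 0.263 for SPAC869.06c. SPAC186.05c, SPAC186.04c and the flocculin gene pfl9 rose by 0.9, 1.07 and 1.15, and their calls held without any 1 library. The pyruvate decarboxylase gene pdc102 went against its neighbours, with 16.7, 23 and 20.8 CPM in A and 41.6, 25.1 and 30.5 CPM in WT (log2 fold change -0.7, adjusted p = 0.0483). It was no longer called without WT replicate 1 (adjusted p = 0.148), WT replicate 3 (adjusted p = 0.123), A replicate 1 (adjusted p = 0.125) or A replicate 3 (adjusted p = 0.076).

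At the left end of chromosome II, SPBC1348.02, of a membrane protein family found only in S. pombe, had 379, 432 and 356 CPM in A and 205, 198 and 203 CPM in WT. It rose by 0.93 (SE 0.1, adjusted p = 0.00248) with a clear gap, and the call held without any 1 library. Copies with at least 99.8% identity, SPAC977.01 and SPAC750.05c, lie near the left and right ends of chromosome I, and were called higher as well (log2 fold changes 0.93 and 0.69, the first lost at 0.0511 and 0.0559 without WT replicates 1 and 3, the second at 0.0655 without WT replicate 3), so the 3 genes are not independent measurements. At the right end of chromosome II the galactose genes lie in a block in which SPBPB2B2.05, a predicted peptidase, had 5.03, 4.75 and 5.29 CPM in A and 0.835, 1.38 and 2.05 CPM in WT. It rose by 1.83 (SE 0.31, adjusted p = 0.01), and its call held without any 1 library.

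**Figure D5:**
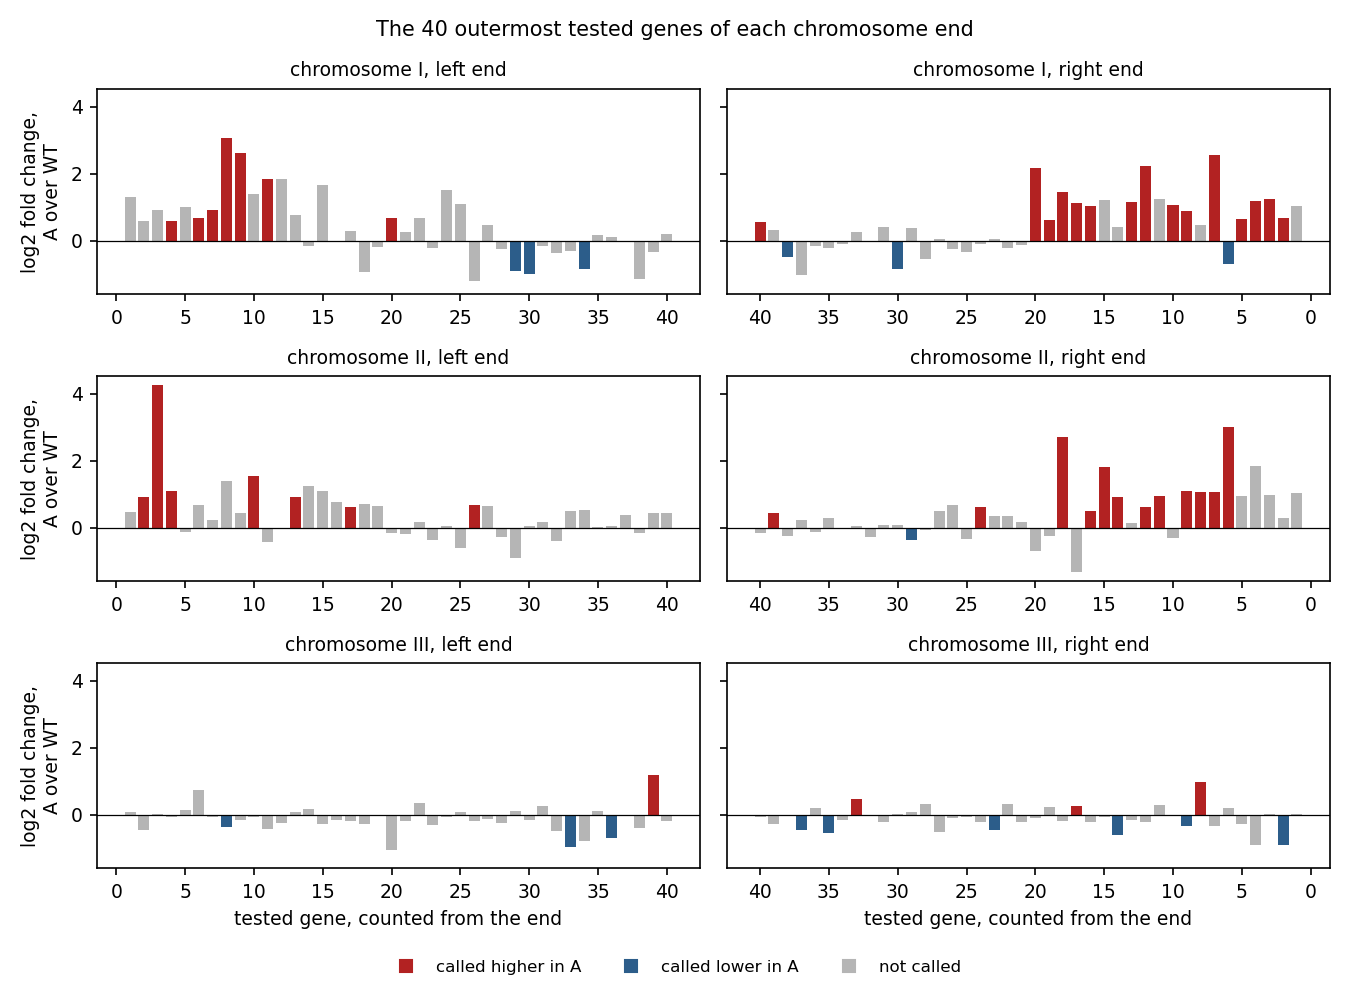
Log2 fold change, A over WT, of the 40 outermost tested genes of each chromosome end, in the order of the reference gene table, with the chromosome's end at the outer side of each panel. Bars in colour are called genes, with 15 of 40 higher at the right end of chromosome I and 12 of 40 at the right end of chromosome II, against 1 and 3 at the ends of chromosome III.

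Few genes were called between the A and Q mutants. In the fit of all 12 libraries 2 of 5024 genes (0.0398%) were called between A and Q, both higher in A. htb1 stood at 16545, 9921 and 5929 CPM in A, against 1134, 1193 and 1281 CPM in Q (log2 difference, A minus Q, 3.17, SE 0.29, adjusted p = 0.000612). SPAC11D3.09, a predicted agmatinase, had 47.4, 32.6 and 33.9 CPM in A and 15.8, 16.8 and 16.4 CPM in Q (log2 difference 1.21, SE 0.16, adjusted p = 0.0108), and 32.8 ± 0.478 CPM in WT (SD, n = 3). Its call was lost without Q replicate 2 (adjusted p = 0.0627) or Q replicate 3 (adjusted p = 0.0711). The number of calls rose to 183 without A replicate 2 and to 184 without Q replicate 1, and was 1 without Q replicate 2 or Q replicate 3, and no gene was called when A and Q were fitted alone, htb1 included. The low count does not show that the mutants are alike.

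Between A and R 124 genes (2.47%) were called, 80 higher (1.59%) and 44 lower (0.876%) in A. Deviations of equally numbered A and R replicates correlated at 0.18, 0.32 and 0.19, though no label pairs them. With the replicate number as a block 364 genes (7.25%) were called, 167 higher (3.32%) and 197 lower (3.92%). Without 1 library the count was between 51 (without R replicate 3) and 172 (without A replicate 2), and it fell to 57, 67, 83 and 82 without A replicate 1, A replicate 3, R replicate 1 or R replicate 2. The largest differences lay at the right end of chromosome I, where R libraries had almost no counts. SPAC186.05c had 854, 695 and 603 counts in A and 2, 2 and 2 counts in R, a ratio of 349 per scaled library total (exact 95% interval 160 to 952). pdc102 had 286, 377 and 346 counts in A and 3, 3 and 2 in R, a ratio of 123 (62.1 to 285). SPAC750.03c had 137, 170 and 69 counts in A and 1, 0 and 0 in R, a ratio of 366 (65.3 to 14492). SPAC750.06c, at 0 counts in all R libraries, was at least 23.4-fold higher in A against the floor of 3 counts per library. The intervals and floors cover counting error only. The A libraries thus held at least 52 counts of each of these genes, and the R libraries nearly none.

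In the other direction, mam2, agn1 and amt1 were lower in A than in R. mam2 had 24.3, 31.6 and 29.6 CPM in A, against 77.4, 132 and 95.8 CPM in R (log2 difference -1.83, SE 0.34, adjusted p = 0.0146, and 0.00644 with the block). Its A and R libraries did not overlap. Leaving out A replicate 1 or A replicate 3 ended the call (adjusted p = 0.0788 and 0.0549). agn1, the glucanase that helps daughter cells separate, had 480, 298 and 395 CPM in A and 967, 1340 and 1287 CPM in R (log2 difference -1.62, adjusted p = 0.00661). It stood at 403 ± 51.9 CPM in WT (SD, n = 3) and was not called between A and WT (adjusted p = 0.857), and its call against R held without any 1 library. The ammonium transporter gene amt1 had 40.9, 31.7 and 43.6 CPM in A and 88, 117 and 107 CPM in R (log2 difference -1.43, adjusted p = 0.00786), also with no overlap and with the call kept without any 1 library.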

How the data were processed

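Gene counts were deposited by the authors as raw whole numbers per library, in 1 table for each mutant with WT, and the WT columns were taken from the table of A and WT. FPKM values, counts per length and library size, stand beside them as the authors made them. Log2 ratios of group mean FPKM and the p-values and FDR of the authors' own tests were deposited in the same tables, per the file headers. Per the submitters' processing notes the tools were RSEM and StringTie, HISAT2 and Bowtie2, fastp and DESeq2, with no role stated for any. The authors' genome build, annotation and strand setting were not given in the sources used here. No coordinates are printed, and gene names, order and overlaps come from the RefSeq annotation of ASM294v3, which matched 5109 of 5160 gene identifiers.

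Counts were fitted with edgeR 4.0.16 (R 4.3.3) by quasi-likelihood with TMM scaling and edgeR's filter on low counts, which left out 161 genes. The A and WT libraries formed the fit for that comparison, and all 12 libraries that of A with Q and R. Fold changes are A over the other group, and all p-values marked adjusted come from these edgeR fits over all tested genes. Alternatives used RLE scaling, no filter, at least 50 counts in 3 libraries, DESeq2 1.42.0, limma 3.58.1 on log2(FPKM + 1) and log2(FPKM + 0.1), the replicate number as a block, and each library left out. List counts in the fit of 12 libraries, list and chromosome-end counts without each library, chromosome-end counts without copied genes and the thiamine list without car1 were added after seeing the data. Near-identical copies were found with blastn 2.17.0. The test was run on simulated data with 4993 genes for A against WT, of which 99 were changed 2-fold and 100 changed 4-fold. It recovered 92.9% of the 2-fold and 100% of the 4-fold changes, and 6.34% of its calls were false. Recovery of smaller changes was not tested, though the median size among called genes was 0.55 on the log2 scale. Whether these rates hold when A spreads more widely than WT (median SD of log2 CPM 0.181 against 0.0895) was not tested. Deviations of equally numbered A and WT libraries correlated at 0.13, 0.32 and 0.07, so with a limit of 0.1 these were not taken as pairs. Those of A and Q (-0.18, 0.2 and 0.13) were not either, and those of A and R (0.18, 0.32 and 0.19) were. No label pairs the libraries, and the main fit of A and R, with its fits leaving out a library, held no block.

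The members, the 25 gene lists and the fit of 6 libraries were chosen with earlier results of these data known. Named were htb1, its neighbours and the core histones, the 12 largest rises and falls called in both fits (at least 2-fold, 5 CPM in the higher group, no overlap), the 3 lowest p-values of each list, runs of at least 3 neighbouring calls, the 5 largest differences per direction from Q and from R (called, with the same limits on size, level and overlap), and genes at 0 counts in 1 group. Other genes named were chosen after their values were seen. Of the list names, 36 matched no gene. Intervals and the floor of 3 counts cover counting error only.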

Additional observations from a re-analysis of the deposited data

Results flagged for a closer look

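A test of the difference between mutants, in the edgeR fit of all 12 libraries, picked out 2 genes between A and Q and 124 between A and R. SPAC11D3.09 and htb1 were higher in A than in Q, by 1.21 and 3.17 on the log2 scale. mam2, ima1, agn1, omh5 and amt1 were lower in A than in R, with log2 differences of -1.83, -1.75, -1.62, -1.61 and -1.43. The call of ima1 was lost without any 1 of the A and R libraries (adjusted p between 0.0549 and 0.149), and that of omh5 without each of them except R replicate 1 (adjusted p between 0.0673 and 0.144). pdc102, SPAC186.04c, SPAC750.05c, SPAC750.03c and SPAC186.05c were higher in A than in R, with fitted log2 differences of 6.88, 7.1, 7.77, 8.07 and 8.36. For these 5 genes the R libraries held 0 to 7 counts each, and the fitted size depends on the prior count.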

How the results depend on the processing

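Of 933 calls between A and WT, all 12 libraries in 1 fit gave 209 (137 higher, 72 lower, 68 of them 2-fold). Leaving out 1 library gave 183 to 1175 calls, 89 to 639 higher, 94 to 536 lower and 77 to 150 of 2-fold size. RLE scaling, no filter and the stricter filter gave 951, 928 and 941 calls, DESeq2 1280, and limma 862 with a pseudocount of 1 and 857 with 0.1. With the replicate number as a block there were 1060 calls between A and WT. Between A and Q there were 96 (48 higher, 48 lower), where the samples share only a number. Between A and R there were 364 (167 higher, 197 lower), where pairing was inferred from correlations and is not given by the labels. Fitting A and Q alone gave 0 calls in either direction (edgeR). Without 1 library there were 1 to 184 calls between A and Q (1 to 151 higher, 0 to 128 lower) and 51 to 172 between A and R (35 to 99 higher, 14 to 73 lower). The causes of these shifts were not tested. The 148 named genes include some that were not called between A and WT in the main fit. Of those called, 81 were lost in the fit of 12 libraries, 8 under the block and 6 to 85 without 1 library, and none changed sign. Chromosome-end genes without a near-identical copy gave 27 higher calls, against 41 with all genes, an alternative chosen after seeing the data. Genes near the floor of 3 counts have the least certain fold changes.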

Other observations

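Some called genes away from the chromosome ends lay beside each other. With 10.2% of all genes called higher and 8.5% lower, some runs arise in any order of genes. Their expected number was not worked out, and no test was run on this. Of the higher runs away from the ends, only that of mst2 is described. In chromosome I, sen15, pdi4 and SPAC959.06c form a run of 3 lower genes. pdi4, a protein disulfide isomerase that folds secreted proteins, had 93.8, 64.6 and 110 CPM in A and 392, 333 and 381 CPM in WT. No A library came near WT, and pdi4 fell by 2.06 on the log2 scale (SE 0.19, adjusted p = 0.00202, edgeR), with the call kept without any 1 library. In the fit of all 12 libraries it was not called (adjusted p = 0.063). SPAC959.06c fell by 1.41 and sen15 by 0.73, the call of sen15 being lost without each library except A replicate 3 (adjusted p between 0.061 and 0.155).

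Another run of 3 lower genes holds cda1, dal1 and SPAC19G12.05, of which SPAC19G12.05 had 141, 101 and 136 CPM in A and 265, 246 and 249 CPM in WT. It fell by 1.02 (SE 0.14, adjusted p = 0.005, edgeR), and was not called in the fit of all 12 libraries (adjusted p = 0.105). cda1 was lost without 5 of the 6 libraries (adjusted p between 0.0514 and 0.14). dal1 fell by 0.65, and was not called once WT replicate 1 or 3 was left out (adjusted p = 0.0511 and 0.0635). The run of mst2, the protein kinase C gene pck1 and SPAC22H10.02 was higher, with pck1 at 176, 183 and 171 CPM in A and 114, 126 and 115 CPM in WT (log2 fold change 0.57, SE 0.08, adjusted p = 0.006). In the fit of all 12 libraries neither pck1 nor SPAC22H10.02 was called (adjusted p = 0.0547 and 0.0523). The call of SPAC22H10.02 was also lost without WT replicate 1, 2 or 3 or A replicate 3 (adjusted p between 0.0529 and 0.119).

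The authors' deposited table lists 148 genes for A against WT, 77 higher and 71 lower. All of them changed at least 2-fold at an FDR below 0.05 in the authors' own test. Without a limit on size, 1266 genes had such an FDR there. Of the 148 listed genes, 131 (88.5%) were called here and 17 were not. Of the 126 calls of 2-fold size here, 123 (97.6%) were listed there. No sign differed.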
